A study of Homo sapiens with 8 samples.

Results

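Imprinted genes are expressed mainly from 1 parental allele, and 34 of them were followed through the methylation maps of 8 neuroblastoma (NB) cell lines, out of 64449 GENCODE genes placed on GRCh37. The genes were listed by name from the known imprinted clusters, and all 34 were found in the annotation. They were read in 2 ways. A promoter peak was a peak that touched the stretch reaching from 1500 bp before to 1000 bp after one of the gene's transcription start sites (TSS), and a body peak was one that touched the gene itself. In addition, 24 control regions of the same clusters were placed on the genome, and every member of the list belongs to a cluster with at least 1 of them.

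NB is a childhood tumor of the sympathetic nervous system, and the maps were made by MBD-seq, in which DNA fragments that hold methylated CpG are pulled down with the binding domain of MBD2 and sequenced from both ends. The lines were sequenced as 1 sample each and form 2 groups by their *MYCN* oncogene: N206, LAN-2, IMR-32 and CHP-902R have *MYCN* amplification (MNA), whereas SK-N-AS, SJNB-1, CLB-GA and SH-SY5Y have a single copy. All are established tumor lines with no normal tissue beside them, and the lines of a group serve as its replicates and p-values measure the spread between these lines only. The deposited lists hold 70816 (SJNB-1) to 112412 peaks (LAN-2), each with a score that rises as its p-value falls and is at least 50, a p-value of 1e-05. Read counts are not part of the lists, which leaves the depth of a line open, and a missing peak does not show that a site is unmethylated.

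Imprinting rests on differentially methylated regions (DMRs), stretches that carry DNA methylation on 1 parental allele in the body. Many are rich in CpG and receive this methylation in the egg or in the sperm, but not all of them do. The protein ZFP57 binds methylated DMRs and keeps their mark, whereas CTCF binds the unmethylated copy of some of them and insulates neighboring genes. Most DMRs carry maternal methylation and overlap a promoter, and a few carry paternal methylation, some of which lie between genes. A DMR is therefore methylated on 1 of 2 alleles in normal tissue, and MBD capture does not tell the alleles apart.

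The sequences under the peaks show what was captured, and 4 stretches of 240 bases or less were chosen because they carry the contrast described further on. The first is the part of the *FAM50B* DMR under a peak in all 8 lines (chr6:3850501-3850607, GRCh37, plus strand), in the exon of this retrotransposed gene and outside its UTRs. The second is from the *RB1* DMR (chr13:48893618-48893857, minus strand), inside the tumor suppressor gene *RB1* at the pseudogene PPP1R26P1, also under a peak in all 8 lines. The third is 240 bases just before the main TSS of *RB1* (chr13:48877640-48877879, plus strand), which also overlap an exon of the divergent transcript RB1-DT and had no peak in any line. The fourth is from the *INPP5F* DMR (chr10:121577981-121578197, plus strand), directly before an internal TSS of *INPP5F* and under a peak in 7 lines. Capitals mark the CpG dinucleotides, the sites that can be methylated.
FAM50B DMR: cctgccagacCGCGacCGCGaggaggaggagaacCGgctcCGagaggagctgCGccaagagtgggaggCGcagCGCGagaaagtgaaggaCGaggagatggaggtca
RB1 DMR: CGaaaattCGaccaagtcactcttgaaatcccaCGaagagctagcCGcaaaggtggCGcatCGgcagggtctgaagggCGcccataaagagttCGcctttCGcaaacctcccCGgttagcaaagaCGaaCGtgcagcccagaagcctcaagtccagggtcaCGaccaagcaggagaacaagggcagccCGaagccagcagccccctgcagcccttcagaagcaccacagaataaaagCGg
RB1 promoter: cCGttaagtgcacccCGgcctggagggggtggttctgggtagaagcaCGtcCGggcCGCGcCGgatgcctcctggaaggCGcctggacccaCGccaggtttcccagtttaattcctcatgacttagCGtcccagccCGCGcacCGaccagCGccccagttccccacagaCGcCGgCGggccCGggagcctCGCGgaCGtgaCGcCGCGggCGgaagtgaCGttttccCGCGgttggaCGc
INPP5F DMR: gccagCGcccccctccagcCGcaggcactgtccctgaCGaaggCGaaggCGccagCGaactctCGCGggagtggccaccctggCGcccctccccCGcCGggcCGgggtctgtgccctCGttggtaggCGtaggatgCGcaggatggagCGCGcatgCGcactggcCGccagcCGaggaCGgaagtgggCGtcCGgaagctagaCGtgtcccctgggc

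The *RB1* promoter stretch holds 29 CpG and the equally long stretch of the *RB1* DMR 15, so the stretch without a peak is the one richer in CpG. The *FAM50B* stretch holds 11 CpG in 107 bases and the *INPP5F* stretch 24 CpG in 217 bases. At the *RB1* DMR the peaks of all 8 lines shared 557 bp of the window, at the *FAM50B* DMR 152 bp. Whether short reads map to the pseudogene PPP1R26P1 alone was not tested.

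Most of the control regions were under a peak in most of the lines. Of the 24 regions, 15 (62.5%) had a peak in at least 5 lines, 3 had one in all 8 lines, and none was without a peak in all lines. The median region had a peak in 5.5 of the 8 lines. Among all canonical promoter windows, 1 per gene, a peak in at least 5 lines was found in 8.17%, and among the 25761 CpG islands of the genome in 11.3%. Of the 20 control regions that have the same length as a promoter window, 2501 bp, 14 had a peak in at least 5 lines. The peaks in control regions numbered 124, and their median score of 86.2 lay at a median percentile of 75.0 within the lists of their lines. When peaks scoring under 100 were dropped, 1 region, the *FAM50B* DMR, had a peak in at least 5 lines, against 1.21% of the canonical windows.

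**Figure D1:**
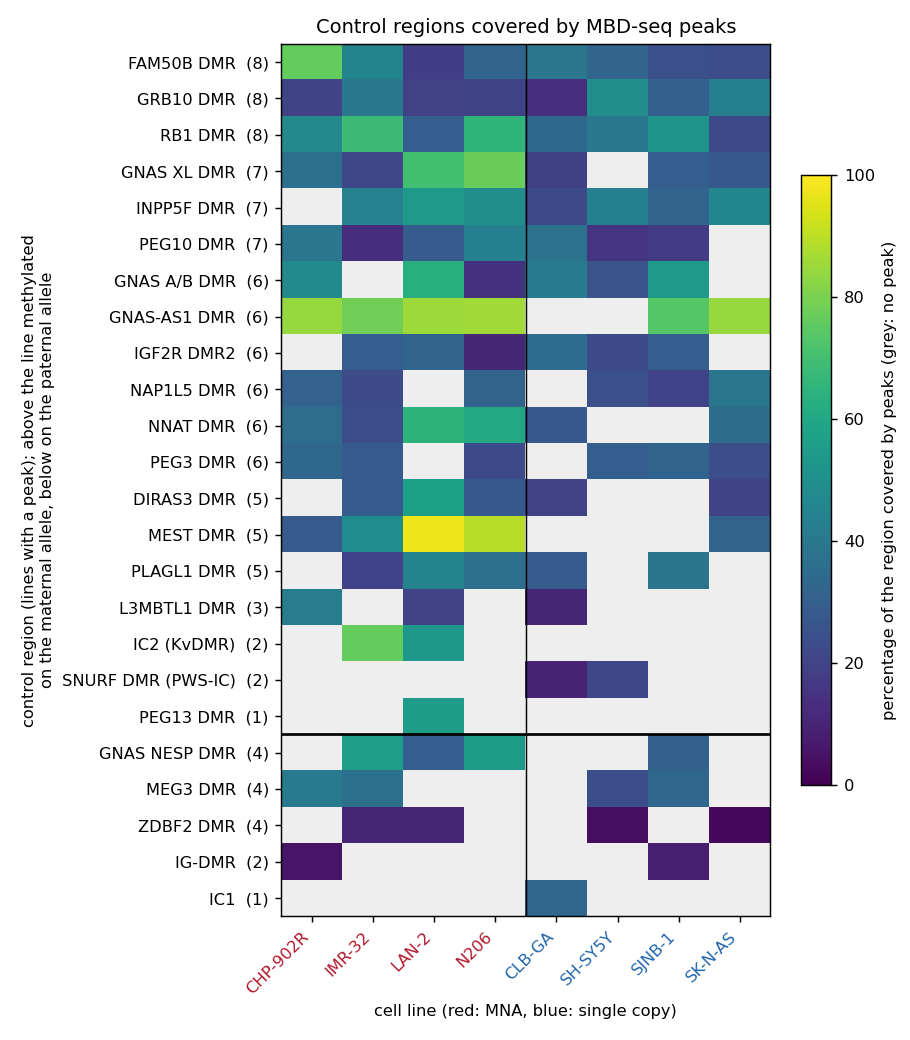
Percentage of each control region covered by peaks (color) in each cell line (columns, 4 MNA lines on the left and 4 single copy lines on the right), with the number of lines with a peak in brackets. The 3 upper rows are filled in all 8 lines, and the 5 regions under the horizontal line, methylated on the paternal allele, have a peak in 1 to 4 lines.

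The DMRs of *FAM50B*, *GRB10* and *RB1* had a peak in all 8 lines. At the *FAM50B* DMR (chr6:3848107-3850607) the best peak scored 231 in CHP-902R, 185 in SJNB-1, 182 in LAN-2, 154 in N206, 146 in SH-SY5Y, 139.8 in SK-N-AS, 136 in IMR-32 and 119 in CLB-GA. These peaks ranked between the 91.3 and 99.7 percentile of their lists, so the region was among the clearest peaks of every line. *FAM50B* is paternally expressed, and 55.5% (CLB-GA) to 77.5% (CHP-902R) of its gene body was under peaks.

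At the *GRB10* DMR (chr7:50849593-50852093), the CpG-rich promoter of a growth factor receptor adaptor, the best peak scored 149.5 in SH-SY5Y, 139.8 in N206, 124 in CLB-GA, 99.1 in SJNB-1, 87.1 in SK-N-AS, 71.1 in CHP-902R, 63.1 in IMR-32 and 60.3 in LAN-2. No base of the region was covered in all 8 lines, because of N206 and LAN-2. The peak of N206 ended at position 50850103, and that of LAN-2 began at 50850629. Between these positions, every other line had a peak over the stretch chr7:50850169-50850400. At the *RB1* DMR (chr13:48893611-48896111) the best peak scored 123 in LAN-2, 113 in SJNB-1, 102 in N206 and in IMR-32, 92.6 in CLB-GA, 73.8 in SH-SY5Y, 55.1 in SK-N-AS and 54.0 in CHP-902R. The last 2 peaks were weak, at the 18.5 and 11.4 percentile of their lists. When every list was cut to its best 70816 peaks by score, the *FAM50B* DMR alone kept a peak in all 8 lines and the other 2 regions had one in 7. When the midpoint of the peak had to lie in the region, *FAM50B* and *GRB10* had 7 lines and *RB1* 4. The *RB1* window begins inside a CpG island (chr13:48892491-48893871) that had a peak in all 8 lines, so its midpoint count depends on where the region is drawn.

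The DMRs of *PEG10*, *INPP5F* and *GNAS* XL each lacked a peak in 1 line. *PEG10*, a retrotransposon-derived gene of the placenta, shares its DMR with *SGCE*, a sarcoglycan gene read in the opposite direction, and SK-N-AS was the line without a peak. It had one just past the border (chr7:94287151-94287495), inside the promoter window of *SGCE*, so its missing peak depends on where the region is drawn. The *INPP5F* DMR, inside an inositol phosphatase gene, lacked a peak in CHP-902R, and its scores in the other 7 lines ran from 90.0 (SJNB-1) to 153 (LAN-2). The XL promoter of *GNAS*, which makes the large form of the stimulatory G protein alpha subunit, lacked a peak in SH-SY5Y. In CHP-902R, SJNB-1, SK-N-AS and IMR-32 its one peak was that of the neighboring *GNAS-AS1* DMR reaching into the window. The one peak of N206 also spanned both regions and covered 77.4% of the XL window. With peak midpoints 2 lines were left at *GNAS* XL. A CpG island at the edge of this window (chr20:57428915-57430499) had a peak in LAN-2 and SK-N-AS only. At *PEG10* 5 lines were left with midpoints and 4 when at least 20% of the region had to be covered. In the lines with a peak, 13.1% to 43.2% of the *PEG10* region, 22.4% to 54.1% of the *INPP5F* region and 19.03% to 77.4% of the *GNAS* XL region were covered.

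Other maternally methylated regions had peaks in 5 or 6 lines. The *GNAS-AS1* DMR, the promoter of an antisense RNA in the *GNAS* cluster, had 73.7% to 86.0% of its length covered in 6 lines and none in CLB-GA and SH-SY5Y. It overlaps the window of *GNAS* XL, so some peaks count in both. The *GNAS* A/B DMR lacked a peak in IMR-32 and SK-N-AS. The *PEG3* DMR, shared by the zinc finger genes *PEG3* and *ZIM2*, and the *NAP1L5* DMR, of a nucleosome assembly protein gene, were each without a peak in LAN-2 and CLB-GA. The *NNAT* DMR, of the neuronal proteolipid gene neuronatin, lacked one in SH-SY5Y and SJNB-1. Its peaks were weak, with best scores of 50.8 to 68.5, and 3 lines were left after the lists were cut to equal length and none at a score of 100. The *IGF2R* DMR2, at the start of the antisense RNA AIRN inside the receptor gene *IGF2R*, lacked one in CHP-902R and SK-N-AS. Its window of 5501 bp reaches well into AIRN, and at the promoter of AIRN itself only LAN-2 and CLB-GA had a peak.

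The *PLAGL1* DMR, of a zinc finger growth regulator, had a peak in IMR-32, LAN-2, N206, CLB-GA and SJNB-1. The *DIRAS3* DMR, of a RAS-related tumor suppressor, had one in IMR-32, LAN-2, N206, CLB-GA and SK-N-AS. CHP-902R and SH-SY5Y were thus without a peak in both. The *MEST* DMR, of a hydrolase-like gene of the mesoderm, had a peak in all 4 MNA lines, with 97.4% of the region covered in LAN-2, 89.2% in N206, 48.7% in IMR-32 and 28.7% in CHP-902R. Among the single copy lines SK-N-AS alone had one, with 32.03%.

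A smaller set of maternally methylated regions had few peaks. The control region IC2 (KvDMR, chr11:2720233-2722733) is the promoter of *KCNQ1OT1*, an antisense RNA that silences *CDKN1C* and other genes on the same chromosome copy, and it had a peak in IMR-32 (76.4% covered) and LAN-2 (53.3%). The *SNURF* DMR, the imprinting center of the Prader-Willi region (chr15:25198634-25201134), had a peak in CLB-GA (9.88% covered) and SH-SY5Y (21.7%). The *L3MBTL1* DMR, of a polycomb-like gene, had one in CHP-902R, LAN-2 and CLB-GA. The PEG13 DMR, inside *TRAPPC9*, had one in LAN-2 only. A CpG island that reaches into the PEG13 window at its edge (chr8:141107821-141109744) had a peak in SK-N-AS, SJNB-1, SH-SY5Y, LAN-2 and IMR-32, so the count at PEG13 depends on where the region is drawn.

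None of the 5 paternally methylated regions had a peak in over 4 lines, against a median of 6 lines for the 19 maternally methylated ones. The region IC1, the insulator between *H19* and *IGF2* (chr11:2020572-2025072), had a peak in CLB-GA only, with a score of 60.1. IG-DMR, between *DLK1* and *MEG3*, had one in CHP-902R and SJNB-1, and the *MEG3* DMR in CHP-902R, IMR-32, SH-SY5Y and SJNB-1. The *ZDBF2* DMR had one in IMR-32, LAN-2, SH-SY5Y and SK-N-AS, with 2.20% to 10.4% of this long region covered. The *GNAS* NESP DMR had one in IMR-32, LAN-2, N206 and SJNB-1. The maternal regions held 2.78 (*IGF2R* DMR2) to 8.16 (*GNAS* A/B) CpG per 100 bp. IG-DMR and the *ZDBF2* DMR were sparser, with 1.98 each, whereas IC1 (3.91), *GNAS* NESP (4.80) and the *MEG3* DMR (4.998) lay within that range. Whether the lower counts of the paternal regions go with their CpG density was not tested. The order of maternal and paternal regions depends in part on the borders: when each window was extended to the CpG islands it overlaps, *GNAS* NESP had a peak in 7 lines, all but SH-SY5Y, and PEG13 in 5. With these extended windows 17 of the 24 regions (70.8%) had a peak in at least 5 lines, of which 1 was paternally methylated, against 8.45% of the canonical windows.

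IC1 is made of repeats, and its 4501 bp hold 6 matches to GGNGGCAG, part of the CTCF site, on the minus strand. The peak of CLB-GA (chr11:2021068-2022552) spans 3 of them. A match under this peak and a match outside it are shown, 5′ to 3′ on the minus strand, with the match in capitals.
IC1, under the CLB-GA peak, chr11:2021182-2021221: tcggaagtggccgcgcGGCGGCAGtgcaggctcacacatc
IC1, outside the peak, chr11:2023427-2023466: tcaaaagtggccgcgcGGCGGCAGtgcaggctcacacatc
Both stretches carry the same match, with 5 and 4 CpG in 40 bases, and the other 4 matches, also on this strand, hold 4 or 5 CpG in the same length.

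Peaks were not evenly spread along the chromosomes of each line, and some missing peaks lay where a line had few peaks within 2 Mb of the control region. Over the 21 regions with a peak in some but not all lines this was not general, since the median number of such peaks was 168 where the region had none and 171 where it had one, and within a region the median was lower without the peak in 12 of the 21. CHP-902R lacked peaks at *DIRAS3* (23 peaks within 2 Mb, against 80 to 224 in the other lines), *INPP5F* (46 against 91 to 202), *PLAGL1* (27) and *IGF2R* (81). At *PLAGL1* SH-SY5Y also lacked a peak, with 62. SK-N-AS lacked the peaks at *PLAGL1* and *IGF2R*, both on the long arm of chromosome 6, and had 22 and 55 peaks around them. The 5 lines with a *PLAGL1* peak had 52 to 115 there, and the 6 lines with an *IGF2R* peak 123 to 185. At *PEG10* IMR-32 had a peak beside 32 peaks within 2 Mb, and SK-N-AS, with its peak just outside the border, had 162. Copy number and depth behind these counts were not tested.

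Several control regions lie inside a gene whose other promoter is at least as rich in CpG, which allows a comparison within the gene. At *RB1* the control region had a peak in 8 lines and the main promoter window in none, with 4.80 and 5.88 CpG per 100 bp. At *INPP5F* the control region had a peak in 7 lines, all but CHP-902R, whereas the main promoter had one in CHP-902R only. At *IGF2R* the counts were 6 and 1 and at *PLAGL1* 5 and 1, and at both genes the promoter peak was that of SJNB-1. The *IGF2R* pair is of unequal length, since its control region spans 5501 bp and the promoter window 2501 bp. At the AIRN promoter, inside that control region, 2 lines had a peak. At *GRB10* they were 8 and 5.

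The other 4 genes of this kind had counts that differed by at most 2 lines. At *KCNQ1*, a potassium channel gene, the control region IC2 had a peak in 2 lines and the main promoter in 1. At *TRAPPC9*, a vesicle trafficking gene, the PEG13 window and the promoter had a peak in 1 line each. At *GNAS* the XL region had a peak in 7 lines, but in CHP-902R, IMR-32, SJNB-1 and SK-N-AS it was that of the *GNAS-AS1* DMR reaching in. The main promoter, of the common G protein subunit, had one in 6. That promoter window overlaps the *GNAS* A/B DMR, and in 5 of the 6 lines a peak of the A/B DMR reached into it, so this pair does not set a control region against a separate promoter. At *L3MBTL1* the order was turned, with 3 lines for the control region and 5 for the main promoter.

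**Figure D2:**
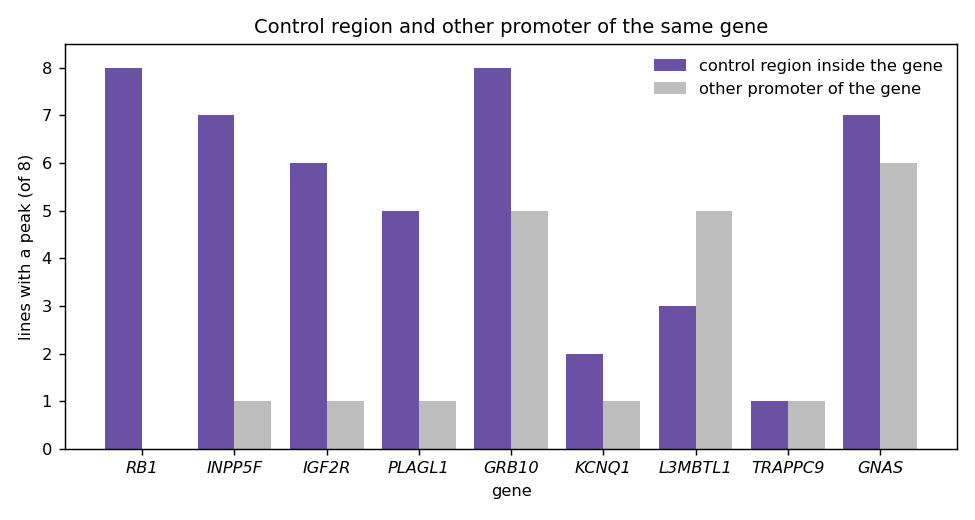
Number of lines (of 8) with a peak in the control region (purple) and in another promoter window (grey) of the same 9 genes. The control region of *IGF2R* is longer (5501 bp) than its promoter window (2501 bp). At *GNAS* some peaks counted for the control region are those of the neighboring *GNAS-AS1* DMR reaching in. *RB1* has 8 lines against none, and *L3MBTL1* is the gene with fewer lines at its control region than at its promoter.

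Over all their TSS, 1 line or more had a promoter peak at 30 of the 34 genes (88.2%), against 55.6% of all genes and 73.9% of protein-coding genes. Among protein-coding genes with at least 8 TSS, the median number of the members, the share was 90.8%, so this count does not set the members apart. A promoter peak in all 8 lines was found in 9 of them (26.5%), namely *PEG10*, *SGCE*, *BLCAP*, *L3MBTL1*, *GNAS*, *GRB10*, *INPP5F*, *FAM50B* and *TRAPPC9*. The share was 2.73% in all genes and 6.12% in protein-coding genes. Among the protein-coding genes with at least 8 TSS it was 11.7%. With the canonical TSS only, 2 members, *GRB10* and *FAM50B*, had a peak in all 8 lines, against 1.04% of all genes.

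The count over all TSS joins peaks at different starts of a gene. The members have 139 groups of neighboring TSS, and 4 of these groups, in *PEG10*, *SGCE*, *GRB10* and *FAM50B*, had a peak in all 8 lines. *TRAPPC9* and *L3MBTL1* reached 8 lines through several starts, none of which had a peak in over 6. *BLCAP*, which hosts *NNAT* in an intron, had no peak at its main TSS in any line and one beside *NNAT* in 7.

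**Figure D3:**
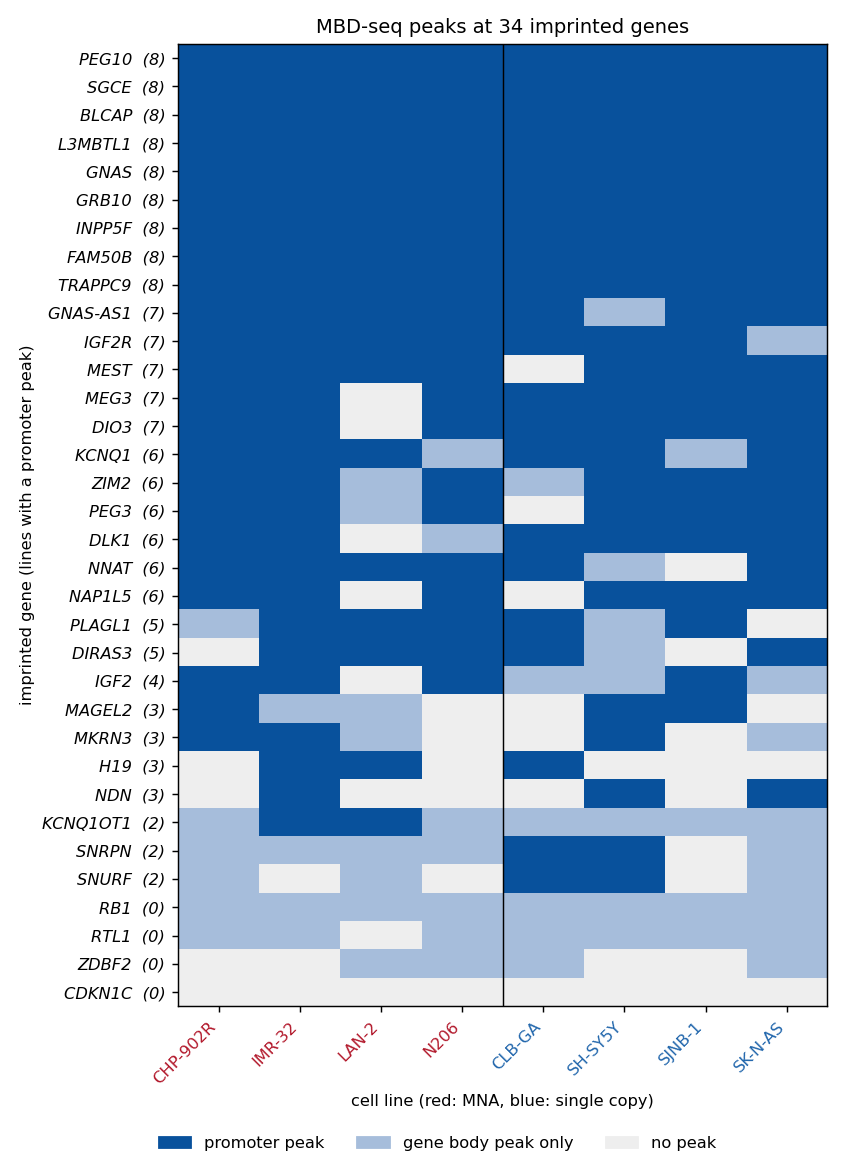
Peaks at the 34 genes (rows, with the number of lines with a promoter peak) in the 8 lines (columns, MNA on the left). Dark blue is a promoter peak, light blue a peak in the gene body only and grey no peak. The 9 upper genes are dark in all lines and *CDKN1C*, in the last row, is grey in all lines.

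The number of members with a promoter peak per line ran from 18 in LAN-2, the line with the longest list, to 27 in IMR-32. It was 22.25 ± 3.77 in MNA lines (SD, n = 4) and 21.5 ± 1.00 in single copy lines (SD, n = 4), and the groups overlapped. A body peak in all 8 lines was found in 15 members (44.1%), against 13.5% of all genes and 32.8% of protein-coding genes. Protein-coding genes with at least 8 TSS had 46.5%, about the share of the members.

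No promoter peak in any line was seen for *CDKN1C*, *RTL1*, *ZDBF2* and *RB1*. *CDKN1C*, the gene of the cell cycle inhibitor p57, had no peak in its body either, although its CpG island (chr11:2904966-2907733) holds 367 CpG. *RB1* had body peaks in 8 lines, *RTL1* in 7 and *ZDBF2*, a zinc finger gene, in 4.

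Apart from *KCNQ1OT1*, *SNRPN* and *SNURF*, the genes with a maternally methylated DMR at a TSS had promoter peaks in 5 to 8 lines over all their TSS. For *L3MBTL1* this count came from several starts, and the group of TSS at its DMR had a peak in 3 lines. *NNAT*, *NAP1L5*, *PEG3* and *ZIM2* had 6 each, in the lines already given for their control regions, and *PLAGL1* and *DIRAS3* had 5 each. *MEST* had 7 lines over all its TSS, without CLB-GA, and *GNAS-AS1* 7, without SH-SY5Y. *IGF2R* also reached 7 lines, all but SK-N-AS, but no group of its TSS had a peak in over 2 lines. *PEG10* had 17.4% (SK-N-AS) to 28.1% (N206) of its body under peaks, and *SGCE*, a far longer gene with 73 TSS, 0.100% to 2.05%. *DIRAS3* reached 40.3% and *NNAT* 41.6% in the line with the most, and both were at 0% in others.

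In the *IGF2* and *H19* cluster, the growth factor gene *IGF2* had a promoter peak in CHP-902R, IMR-32, N206 and SJNB-1. Its 4 lines had their peaks at 4 groups of TSS, with at most 2 lines at 1 group. Body cover of *IGF2* was 0% in LAN-2 and 4.25% (CLB-GA) to 13.3% (CHP-902R) in the others. *H19*, a non-coding RNA made from the maternal allele, had 24.97% of its body covered in IMR-32, 15.8% in CLB-GA and 4.72% in LAN-2, and no peak in the other 5 lines. The annotated *H19* gene reaches over IC1, and the peak of CLB-GA lies there, whereas those of IMR-32 and LAN-2 lie at the *H19* gene proper. *KCNQ1OT1* had a promoter peak in IMR-32 and LAN-2 and body peaks in all 8 lines. *KCNQ1* had a promoter peak in 6 lines, which came from a single internal TSS, with 1 line at its main TSS.

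In the Prader-Willi cluster, *SNRPN* and *SNURF*, which share a transcript for a splicing protein, had a promoter peak in CLB-GA and SH-SY5Y. *NDN*, a growth suppressor of neurons, had one in IMR-32, SH-SY5Y and SK-N-AS, with 51.2%, 29.5% and 22.98% of the gene covered. *MAGEL2*, a ubiquitin ligase partner, had one in CHP-902R, SH-SY5Y and SJNB-1, and *MKRN3*, a ubiquitin ligase that restrains puberty, in CHP-902R, IMR-32 and SH-SY5Y. SH-SY5Y was the line with a promoter peak at all of these 5 genes. N206 and CLB-GA had no peak at all in *NDN*, *MAGEL2* and *MKRN3*.

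The domain on 14q32 from *DLK1* to *DIO3* (chr14:101192042-102029789) held fewest peaks in LAN-2. LAN-2 had 1 peak in its 837748 bp, which covered 0.0362% of it. CLB-GA had 71 peaks, SH-SY5Y 54, CHP-902R 49, SJNB-1 44, IMR-32 39, SK-N-AS 35 and N206 30. In these 7 lines 2.05% to 5.76% of the domain was covered. Within 2 Mb on both sides LAN-2 had 169 peaks, against 110 to 273 in the other lines, and N206 (110) and SJNB-1 (161) had fewer than LAN-2. Of the peaks of LAN-2, 1.79% lay on chromosome 14, against 2.46% to 3.28% in the other lines. After the lists were cut to equal length LAN-2 still had 1 peak and the others 18 to 63. Within the 4 MNA lines the gap from LAN-2 to the next line, N206, was 0.604 of the whole range of peak numbers, which is too small to count LAN-2 as an outlier by Dixon's test.

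The 4 members of the domain followed this pattern. *DIO3*, the deiodinase that inactivates thyroid hormone, had a promoter peak in 7 lines with 21.0% (N206) to 42.3% (SJNB-1) of the gene covered. *MEG3*, a non-coding RNA made from the maternal allele, had one in the same 7 lines and *DLK1*, a membrane protein of immature cells, in 6 of them, without N206. *RTL1*, a retrotransposon-derived gene of the placenta, had body peaks in the 7 lines, with 6.32% (N206) to 22.8% (SH-SY5Y) covered. LAN-2 had no peak in any of the 4 genes, in IG-DMR or in the *MEG3* DMR. A loss of this DNA in LAN-2 and an absence of methylation there cannot be told apart from the peak lists.

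**Figure D4:**
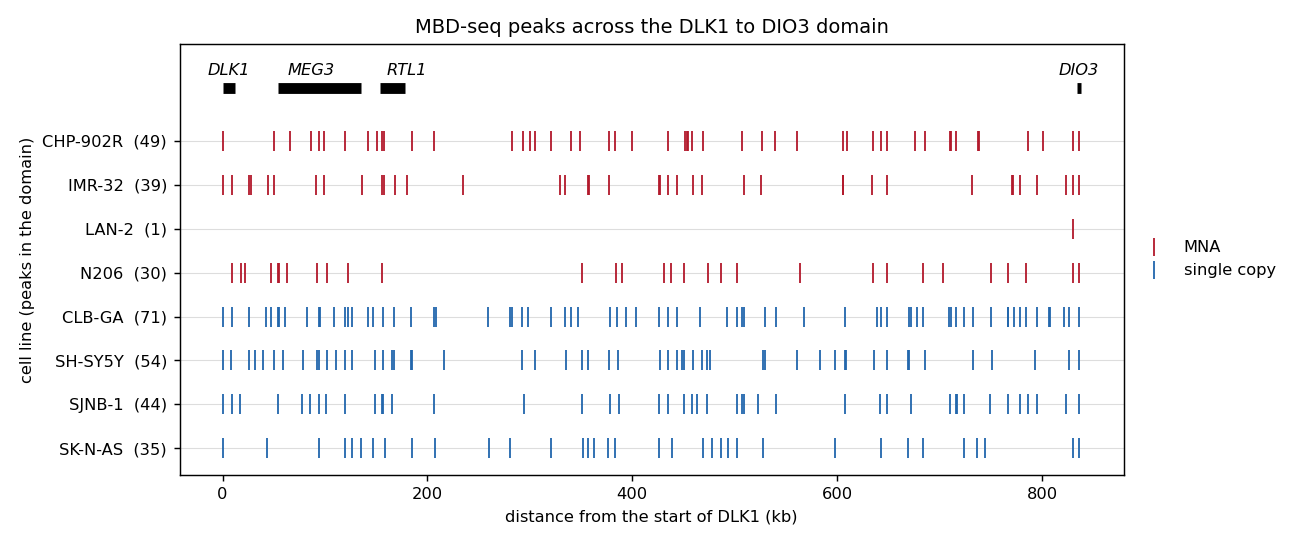
Peaks (ticks) in the domain from *DLK1* to *DIO3* against the distance from the start of *DLK1* in kb, with 1 row per line, the number of peaks in brackets and the 4 genes as black bars. LAN-2 has 1 peak, and the other 7 lines have 30 to 71 spread over the domain.

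The lines also fall into the MNA and single copy groups, and the question is whether methylation of these genes differs with *MYCN* status. For no member were the promoter peaks found throughout 1 group and absent from the other, and genome-wide 0.354% of the genes with a promoter peak did. No member did so for body peaks, against 0.207% of the genes with one. In two-sided Fisher's exact tests per gene, the smallest possible p of 0.0286 needs such a full separation, and after Benjamini-Hochberg adjustment over all genes the lowest adjusted p was 1. No member reached that smallest p before adjustment either. *IGF2* was the one member with at least 3 lines of a group and at most 1 of the other, 3 MNA lines and 1 single copy line (p = 0.486, Fisher's exact test, adjusted p = 1). *KCNQ1OT1*, *SNRPN*, *SNURF*, *DLK1* and *NNAT* also differed by 2 lines between the groups (p = 0.429, Fisher's exact test, adjusted p = 1).

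In percentage of the gene body covered by peaks, *MEST*, *GNAS* and *RB1* did not overlap between the groups (two-sided exact permutation test, p = 0.0286, adjusted p = 1), and all 3 were higher in MNA lines. Genome-wide 2.04% of the genes with a body peak did not overlap, and 1.7% did not overlap and were higher in MNA lines. *MEST* cover was 16.8% in LAN-2, 14.1% in N206, 10.5% in IMR-32 and 7.72% in CHP-902R among the MNA lines. Of the single copy lines SK-N-AS had 7.39%, SH-SY5Y 5.95%, SJNB-1 3.85% and CLB-GA 0%. The lowest MNA line and the highest single copy line thus nearly met. *GNAS* cover was 12.5% ± 3.24 in MNA lines (SD, n = 4) and 7.60% ± 2.06 in single copy lines (SD, n = 4), and the highest single copy line, SJNB-1 at 9.49%, lay just under the lowest MNA line, CHP-902R at 9.86%. *RB1* cover was 2.48% ± 0.342 in MNA lines (SD, n = 4) and 1.75% ± 0.459 in single copy lines (SD, n = 4), with N206 lowest at 2.25% in the first group and SJNB-1 highest at 2.24% in the second. Over all members cover was higher on average in MNA lines in 21 and in single copy lines in 12, and over all genes in 23492 and 13506.

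The peaks of the MNA lines covered 52.2 to 61.0 Mb of the genome in all and those of the single copy lines 39.8 to 52.3 Mb. When cover was scaled to this total, the groups overlapped for *MEST* (difference 6.42 percentage points, exact permutation p = 0.0571), *GNAS* (2.44 percentage points, exact permutation p = 0.257) and *RB1* (0.204 percentage points, exact permutation p = 0.486). With lists of equal length they also overlapped, with differences of 7.11, 3.47 and 0.0947 percentage points.

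**Figure D5:**
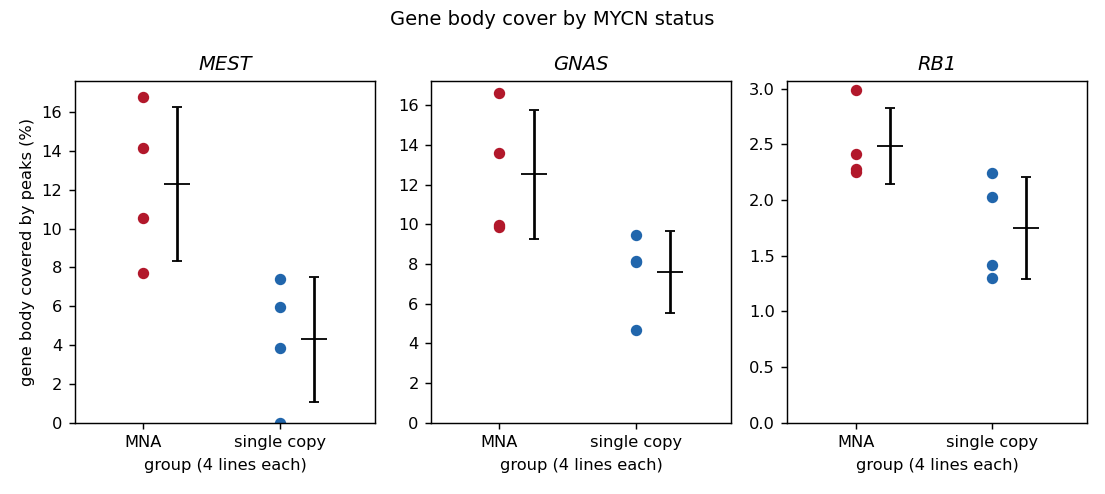
Percentage of the gene body under peaks for *MEST*, *GNAS* and *RB1*, with 1 point per line and the mean ± SD of each group of 4 lines beside the points. The MNA points lie above the single copy points in all 3 genes, by a narrow margin.

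Among the control regions, *MEST* was the one with the largest gap between groups, 4 MNA lines against 1. At the CpG island around its TSS (chr7:130131687-130132507), with peaks in the same numbers of lines, p was 0.143 by Fisher's exact test (two-sided), with an adjusted p of 1 over all islands. In the *MEST* DMR the peak of CHP-902R was weak, with a score of 50.4 at the 1.36 percentile of its list. With lists of equal length the *MEST* DMR had a peak in 4 lines, and with a minimum score of 100 in 3. The *GNAS* NESP window had 3 MNA lines against 1, and with the window extended to its CpG island 4 against 3. Best scores in the NESP window were 51.7 in LAN-2, 52.5 in SJNB-1, 56.1 in IMR-32 and 128.6 in N206. With lists of equal length 2 lines were left there. Control regions with a peak numbered 18 in LAN-2 and in IMR-32, 16 in N206 and 14 in CHP-902R, against 15 in SJNB-1, 14 in CLB-GA and 12 in SK-N-AS and in SH-SY5Y, and the groups overlapped.

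The CpG islands inside the member genes number 54. A peak in at least 5 lines was found in 22 of them (40.7%, against 11.3% of all islands), a peak in all 8 lines in 3 (5.56%, against 2.32%), and no peak in any line in 12 (22.2%, against 56.7%). The ZFP57 hexamer TGCCGC, searched on both strands, was present in 21 of the 24 control regions, in 58.6% of all islands and in 41.8% of the canonical promoter windows. It was absent from the letters of the *PEG10*, *RB1* and *GNAS* A/B regions, all of which had peaks in at least 6 lines. Of the 18 islands in member genes with at least 3 matches, 10 had a peak in at least 5 lines (55.6%), and of the 36 with fewer, 12 did (33.3%). Among all islands with at least 3 matches the share was 12.7%. GGNGGCAG was present in 18 of the 24 control regions, in 50.9% of all islands and in 63.7% of the canonical windows.

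Of a further list of 61 imprinted genes, 57 were found in the annotation. A promoter peak in at least 1 line was seen in 49 of them (86.0%) and in all 8 lines in 4 (7.02%), *CD81*, *DLGAP2*, *ZFAT* and *GET1*, which were named after their values were seen. Protein-coding genes with at least 8 TSS, also the median of this list, had 90.8% and 11.7%, so both shares of the list lay under that background. With the canonical TSS none of the 57 had a peak in all 8 lines and 11 had one in at least 5. No gene of this list separated the *MYCN* groups by a promoter peak or a body peak (two-sided Fisher's exact test, adjusted p = 1). In body cover 3 of its genes did not overlap between the groups (two-sided exact permutation test, p = 0.0286, adjusted p = 1, against 2.04% of all genes with a body peak). *DLX5* was higher in MNA lines, whereas *KCNK9* and *DDC* were higher in single copy lines.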

How the data were processed

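DNA of 8 NB cell lines was captured with MBD2 and sequenced paired-end. Per the labels, reads were mapped with Bowtie 0.12.7 on GRCh37, and the authors called peaks with MACS in each line separately. The deposited lists give the position and a score of each peak, 10 times the negative log10 of its p-value. The study gives its read depth as a range over the lines, and the depth of each line, the options of the peak calling and an input control are not given in the sources used here. Presence or absence of a peak has no interval.

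Peaks were read against GENCODE release 44 in GRCh37 coordinates, on the autosomes, X and Y, with Python 3.11.15, numpy 2.4.6, scipy 1.17.1 and pandas 2.3.3, and figures were drawn with matplotlib 3.10.9. An overlap of 1 bp was enough. TSS within 1000 bp formed 1 group. Control regions were windows placed by hand around annotated starts from knowledge of the clusters, and the starts of *H19*, *MEG3*, *L3MBTL1* and AIRN were corrected once the annotation was seen. CpG islands (at least 500 bp, GC content at least 55%, observed over expected CpG at least 0.65) were computed from the sequence with numba 0.67.0. Groups were compared with two-sided Fisher's exact tests for presence and exact permutation tests for cover, adjusted by Benjamini-Hochberg over all genes or islands with a peak, and the steps were tested on simulated data.

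The members and lists were chosen with earlier results of these data known. All 34 members are named. Values per line are given for control regions and for members with a peak in all lines, in none, or in at least 3 lines of 1 *MYCN* group and at most 1 of the other. Alternatives were a minimum score of 100, lists cut to equal length, peak midpoints, other windows and TSS sets, a minimum cover of 20% of the region, and counts without 1 of the lines. The extended windows, the count of regions with a peak in at least 5 lines and the scaled cover were added after the data were seen. CHP-902R is MNA by its label and in the supplement of the study, although the results text of the study leaves it out of that group.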

Additional observations from a re-analysis of the deposited data

Results flagged for a closer look

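Among 20 groups of 4 lines examined for a line far from the other 3, 2 stood out, both in SH-SY5Y, where chance gives about 1 in 20. SH-SY5Y had 23 members with a promoter peak, whereas the other single copy lines had 21 each. With the other 3 lines tied, a gap of any size would be flagged, so the chance rate does not hold for this count. Peaks covered 67.4% of *FAM50B* in SH-SY5Y and 55.5% to 57.2% in the other single copy lines.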

How the results depend on the processing

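The 30 members with a promoter peak in at least 1 line became 23 to 30 under all alternatives. A score of at least 100 lowered all other counts: 3 members with a promoter peak and 5 with a body peak in all 8 lines, 10.125 members with a promoter peak per line (21.875 as reported), 27 genes separating the *MYCN* groups (127 as reported), and 1 control region each with a peak in all 8 and in at least 5 lines. Control regions with a peak in all 8 lines were 1 with the same number of peaks, 0 with peak midpoints and 1 with at least 20% of the region covered. With canonical TSS, 2 members had a promoter peak in all 8 lines, the mean per line was 15.25, and 68 genes separated the groups. With TSS of protein-coding transcripts these values were 5, 18.25 and 53. Leaving out 1 line gave 237 to 322 separating genes, since fewer lines have to differ, with 295 without CHP-902R. It gave 3 to 4 control regions in all remaining lines and 12 to 15 in at least 5, 9 to 11 members with a promoter peak and 15 to 20 with a body peak in all remaining lines (20 without LAN-2), and a mean of 21.1 to 22.4 members per line. The differences in body cover of *MEST*, *GNAS* and *RB1* kept their sign under the alternatives. Those of other members, *DIRAS3* and *H19* among them, changed sign when 1 line was left out. The differences of *DLX5*, *KCNK9* and *DDC* were not recomputed under the alternatives. No paired analysis was possible because each line is its own sample and the labels give no shared replicate numbers. The unknown depth limits what a missing peak shows.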
